A study of Mus musculus with 6 samples.

Results

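The constitutive proteasome genes described here are the 40 genes, of 18280 in the deposited expression table, whose symbols name a subunit, chaperone or regulator of the proteasome (Psma to Psmg followed by a number). The symbol pattern matched 50 genes, 8 of which were left out by name because they encode the exchangeable catalytic subunits (Psmb5 to Psmb10) or the paired interferon-inducible cap (Psme1 and Psme2). Of the remaining 42 genes, 40 reached a summed count of at least 60 over the 6 libraries, and all 40 passed the filter on low counts, so each was tested. The member with the lowest summed count was Psma8, at 290. Below the limit of 60 lay Psme2b, with counts of 1.16, 3.51 and 4.53 in the TG libraries and 10.93, 11.54 and 14.25 in the WT libraries. Psmb11, also below it, had 2, 1 and 3 in TG and 1, 1 and 7 in WT. The members comprise 8 α-ring subunits, 4 β-ring subunits, 6 ATPases and 3 other subunits of the base, 8 subunits of the lid, 7 assembly chaperones and 3 regulators. The remaining member, Psmc3ip, carries a matching symbol but encodes a partner of Mnd1 in meiotic recombination and is no proteasome subunit.

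Whole ovaries came from 3 transgenic mice (genotype Dennd1aTG, here TG) and 3 wild-type mice (WT), 1 library per animal. Collection was 44 h after an injection of PMSG in both genotypes, a gonadotropin that acts on the FSH receptor and stimulates follicles. The study asks how extra Dennd1a, which encodes an endocytic adaptor, alters the ovary's response to FSH. The construct, its promoter, the number of transgenic lines, the strain and the age of the animals are not given in the sources used here.

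The 26S proteasome degrades proteins tagged with ubiquitin. Its 20S core is a barrel in which outer α rings gate the entrance and inner β rings hold the proteolytic sites, and a 19S cap sits on the barrel's ends. In the cap, a ring of ATPases unfolds the substrate, ubiquitin receptors and scaffold subunits hold it, and the lid removes the ubiquitin chain. Dedicated chaperones build the rings and then leave, and alternative caps can replace 19S on the core. In the ovary the proteasome is known for the destruction of cyclin B and securin in meiosis of the oocyte. Most cells make its subunits together, partly through the transcription factor NRF1 (Nfe2l1), whereas interferon exchanges the catalytic β subunits for Psmb8, Psmb9 and Psmb10.

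None of the 40 members differed between TG and WT ovaries by edgeR's quasi-likelihood test with Benjamini-Hochberg adjustment over 14124 genes, against 1.05% of all tested genes (149 genes). By direction, 0 were higher and 0 lower in TG, against 0.0354% and 1.02% of all tested genes. At an unadjusted p under 0.05 the count was also 0 of 40, against 4.08% of all tested genes, and it was 0 of 40 by DESeq2 and by limma-voom. The log2 fold changes, TG over WT, lay between -0.08 and 0.15, with a median of 0.03 for the members and 0.00 for all tested genes. The smallest unadjusted p was 0.156, for Psmg1, and the smallest adjusted p of any member was 0.9997. The 28 core subunits are the members assigned to the 20S core and 19S cap, without Psma8, so the left-out Psmb5 to Psmb10 are not among them. Their 95% intervals of the difference, TG relative to WT, all lay between -15.7% and 28.0%. With the chaperones and regulators added, 38 members, these outer bounds were -22.0% and 39.1%.

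The groups did not overlap for 2 of 40 members (5.0%), Psmg1 with TG higher and Psmd8 with TG lower, against 8.25% of all tested genes. Of the members, 25 had a fold change above 0 (62.5%), against 50.7% of all tested genes. With 1 library left out, that count lay between 15 of 40, without TG replicate 2, and 33 of 40, without TG replicate 1.

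**Figure D1:**
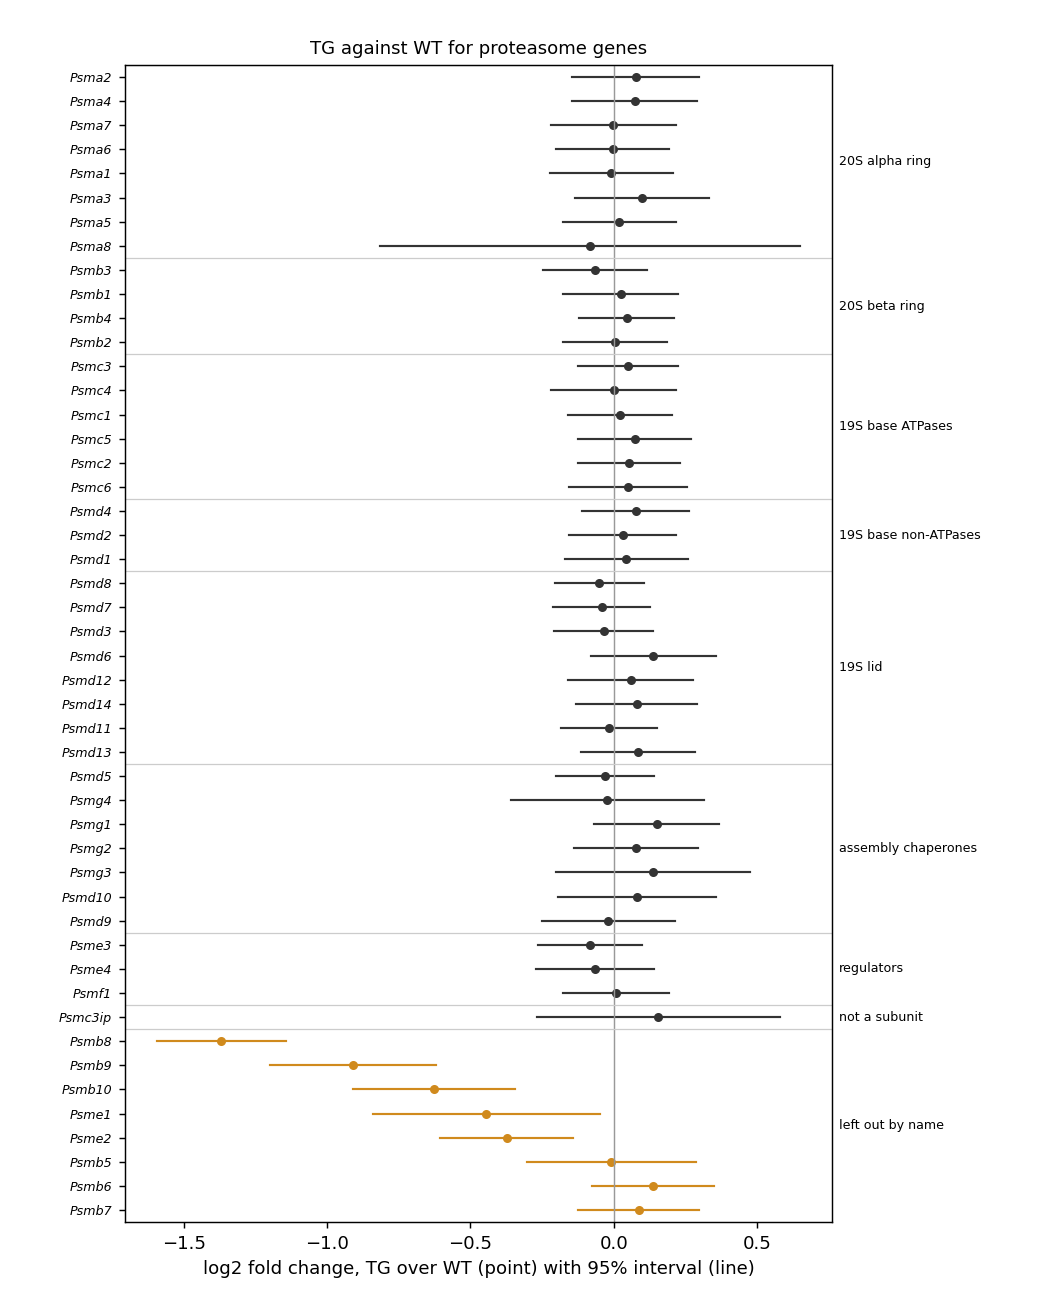
Log2 fold change of each proteasome gene, TG over WT (x axis), with the gene on the y axis, grouped by role. Points are edgeR estimates from 3 TG and 3 WT libraries and lines are 95% intervals. The interval of every member crosses 0, that of Psma8 is the widest of the members, and the intervals of Psmb8, Psmb9, Psmb10, Psme2 and Psme1, which the selection left out, lie below 0.

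The libraries held between 17075484 and 18516171 estimated counts. Dennd1a was at 570, 582 and 588 CPM (read counts scaled to library size) in the TG libraries, against 44.6, 39.5 and 49.3 CPM in the WT libraries, a log2 fold change of 3.70 (SE 0.10, edgeR adjusted p 4.03e-07), as the labels state. All 8 granulosa markers, all 6 theca and interstitial markers and all 8 oocyte markers were found with none at 0 throughout. A library of each group stood apart in markers of other tissues. TG replicate 2 had 113 FPKM of the adipocyte gene Cfd, against 0.50 to 12.4 FPKM elsewhere, and a summed level of 243 FPKM over the 6 adipocyte markers, against 15.4 to 36.8 FPKM. WT replicate 3 had 43.4 FPKM of the muscle gene Des, against 11.1 to 13.8 FPKM elsewhere, and 17.3 FPKM of the oviduct gene Ovgp1, against 0.25 to 2.58 FPKM. The oviduct marker Krt7 went the other way and was lowest there, at 5.61 FPKM, against 6.01 to 19.15 FPKM elsewhere. The remaining oviduct markers, Foxj1 and Pax8, were at most 0.29 FPKM in any library. Other markers differed between the genotypes. The summed erythrocyte level was 519, 451 and 513 FPKM in TG and 322, 278 and 309.5 FPKM in WT. By edgeR 3 of 5 erythrocyte markers were higher in TG, against 0.0354% of all tested genes. Of 8 myeloid markers 7 had every TG library below every WT library, against 5.04% of all tested genes. By edgeR 0 of 8 passed the adjusted threshold and 7 had an unadjusted p under 0.05, against 4.08% of all tested genes. Of 6 theca and interstitial markers 3 had fold changes above 0 and 3 below, and 0 passed. Unadjusted p was under 0.05 for 2, Cyp17a1 (log2 fold change 0.73, every TG library above every WT library) and Aldh1a1 (0.38). All 6 endothelial markers were below 0, 2 of them at an unadjusted p under 0.05, and 0 passed. The part of these cells in the results was not tested. In RNA from a whole ovary, fewer cells of a type and less RNA per cell cannot be told apart.

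Promoter sequence was examined because the members are known to be expressed together. RefSeq promoter windows of assembly GRCm38.p6, here the 250 bases before a start given in that table, were matched by gene for 33 of the 40 members; Psma8, Psmb1, Psmb2, Psmc3, Psmd3, Psmd7 and Psmg2 had no entry. That start is not always the outer end of the gene: the only window of Psma3, Psmd2 and Psmf1 and 1 of 2 windows of Psma6 and Psmc2 lie inside the gene's span, and those of Psma4, Psmc6 and Psmd5 partly so. The windows were searched on both strands for CCGGAAG (a site of ETS factors), CCAAT (the box bound by NF-Y), TGACNNNGC (the core of the antioxidant response element, which NRF1 also binds) and GAAA followed by NN and GAAA (the interferon-stimulated response element). An ETS match was present in 13 of 33 members (39.4%), against 14.5% of 11183 tested genes with a window and 7.83% of all 27025 genes in the promoter table. A CCAAT match was present in 13 of 33 members (39.4%), against 40.4% of tested genes and 37.5% of all genes. Both occurred together in 6 members and neither in 13. The antioxidant response element core was found in 3 members (9.09%), Psmc6, Psmd12 and Psmd9, against 13.9% of tested genes. The interferon element was found in 3 members (9.09%), Psmb3, Psmd4 and Psmd9, against 3.26% of tested genes.

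The windows of 4 members are shown as examples. Each holds matches to the motifs searched, ends directly before the gene's span and contains no annotated exon. Other windows, such as those of Psmd11 and Psmd14, also have these traits and are not shown. Psmg1 (chr16:95990961-95991210, minus strand) has an ETS match at positions -69 to -63 from the gene start. Psmd4 (chr3:95042615-95042864, minus strand) has an ETS match at -125 to -119, the complement of CCAAT at -95 to -91 and that of the interferon element at -80 to -71. Psme3 (chr11:101315963-101316212, plus strand) has an ETS match at -107 to -101 and the complement of CCAAT at -14 to -10. Psmd9 (chr5:123227940-123228189, plus strand) has the interferon element at -159 to -150 and the antioxidant core at -31 to -23. No matches overlap in these windows. Each is written 5′ to 3′ on the strand of its gene, with the matches in capitals.
Psmg1: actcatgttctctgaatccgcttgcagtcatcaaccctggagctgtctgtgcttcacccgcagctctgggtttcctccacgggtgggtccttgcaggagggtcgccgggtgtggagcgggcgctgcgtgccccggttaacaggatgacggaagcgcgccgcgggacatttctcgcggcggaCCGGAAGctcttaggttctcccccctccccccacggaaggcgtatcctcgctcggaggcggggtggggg
Psmd4: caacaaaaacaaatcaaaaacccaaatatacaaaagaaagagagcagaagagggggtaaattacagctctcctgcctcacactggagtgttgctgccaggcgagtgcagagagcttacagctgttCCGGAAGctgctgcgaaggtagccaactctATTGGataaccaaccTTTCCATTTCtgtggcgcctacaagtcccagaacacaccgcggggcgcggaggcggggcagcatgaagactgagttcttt
Psme3: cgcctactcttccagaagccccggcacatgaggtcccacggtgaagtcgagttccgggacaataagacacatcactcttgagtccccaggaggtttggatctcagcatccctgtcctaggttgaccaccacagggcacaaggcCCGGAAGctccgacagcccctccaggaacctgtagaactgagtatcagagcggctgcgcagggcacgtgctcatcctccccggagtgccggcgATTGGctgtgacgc
Psmd9: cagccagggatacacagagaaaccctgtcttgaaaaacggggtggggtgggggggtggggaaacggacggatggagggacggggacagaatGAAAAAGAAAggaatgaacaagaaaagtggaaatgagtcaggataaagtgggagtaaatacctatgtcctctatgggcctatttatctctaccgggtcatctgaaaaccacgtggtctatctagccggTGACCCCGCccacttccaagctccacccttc

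Matches are descriptions of letters and not evidence of binding. The 13 members with an ETS match had a median log2 fold change of 0.05, TG over WT, and the 20 matched members without one had 0.03. Among the 7 left-out genes with a window, no ETS or interferon match was found, CCAAT occurred in 1 and the antioxidant core in 2, Psmb5 and Psmb6.

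**Figure D2:**
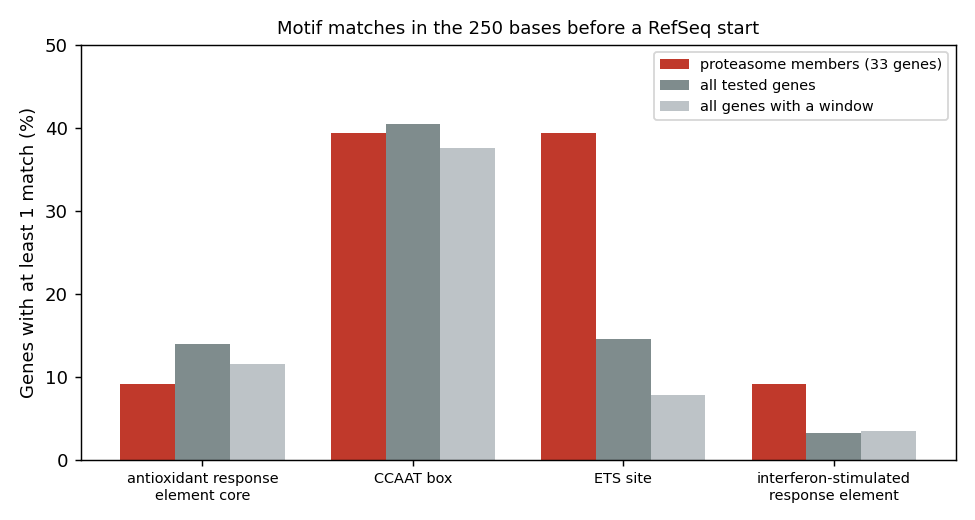
Share of genes (y axis, %) with at least 1 match to each motif (x axis) in the 250 bases before a RefSeq start. Bars give the 33 matched members, the 11183 tested genes and all 27025 genes of the promoter table. The ETS bar of the members stands at 39.4%, against 14.5% of tested genes, while the CCAAT bars stand at 39.4% and 40.4%.

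Levels were compared between genes per length, as FPKM. In the α ring, whose subunits form the gate and dock the caps, Psma2 averaged 227 FPKM over the 6 libraries, followed by Psma4 (198), Psma7 (174), Psma6 (149), Psma1 (133), Psma3 (122) and Psma5 (105). Each of these was above the next in all 6 libraries except Psma1 over Psma3, which held in 5. Psma8, the α subunit known from spermatocytes, was at 1.78, 2.38 and 1.06 FPKM in TG ovaries and at 2.35, 1.5 and 1.65 FPKM in WT ovaries, the lowest member. Its groups overlapped, and with 27 to 66 counts per library its 95% interval ran from -43.1% to 56.8%.

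Within the α ring, Psma3 was at 151, 178 and 144 CPM in TG libraries and at 155, 154 and 133 CPM in WT libraries (log2 fold change 0.10, SE 0.10). Only TG replicate 2 was above the highest WT library and only WT replicate 3 was below the lowest TG library. Psma2 was at 177, 198 and 168 CPM in TG and at 182, 181 and 153 CPM in WT (0.08, SE 0.10), with the same libraries at either end. The other 4 α subunits apart from Psma4 (0.07) and Psma8 had fold changes between -0.01 and 0.02 on the log2 scale.

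The 4 β-ring members are the structural neighbours of the catalytic subunits. Psmb3 averaged 273 FPKM, the highest of all members, followed by Psmb1 (236), Psmb4 (208) and Psmb2 (183), in this order in all 6 libraries. Psmb3 was at 138, 159.7 and 152 CPM in TG libraries and at 155, 155 and 161 CPM in WT libraries (log2 fold change -0.06, SE 0.08). TG replicates 1 and 3 lay below every WT library and TG replicate 2 lay among them. Psmb2 was at 118, 133 and 121 CPM in TG and at 119, 122 and 129.6 CPM in WT (0.00, SE 0.08), so the groups overlapped.

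The ATPases of the base, which thread the substrate into the core, spanned a narrow range of levels. Psmc3 averaged 139 FPKM, Psmc4 133, Psmc1 132 and Psmc5 124, and the order of these 4 was not held in every library: Psmc4 was above Psmc1 in only 3 of 6. Psmc2 (99.9 FPKM) and Psmc6 (87.3 FPKM) were lower in all 6 libraries. Psmc5 was at 135, 156 and 132 CPM in TG libraries and at 136, 138 and 129 CPM in WT libraries (log2 fold change 0.07, SE 0.09). TG replicate 2 was alone above the WT range. Psmc3 was at 200.3, 218 and 202 CPM in TG and at 201, 207 and 191 CPM in WT (0.05, SE 0.08). Psmc6 was at 129, 129 and 113 CPM in TG and at 127, 123 and 109 CPM in WT (0.05, SE 0.09), and for both genes the groups overlapped.

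Of the other base subunits, Psmd4, a ubiquitin receptor, averaged 159 FPKM, above the scaffolds Psmd2 (101 FPKM) and Psmd1 (78.1 FPKM) in all 6 libraries. Psmd4 was at 189, 205 and 179 CPM in TG libraries and at 183, 189 and 172 CPM in WT libraries (log2 fold change 0.08, SE 0.08). Psmd1 was at 239, 267 and 228 CPM in TG and at 254, 244 and 215 CPM in WT (0.04, SE 0.10). In both genes the highest library was TG replicate 2 and the lowest WT replicate 3, with the rest intermixed.

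The lid holds the deubiquitinase Psmd14, its partner Psmd7 and a horseshoe of scaffold subunits. Psmd8 averaged 133 FPKM and Psmd7 123, above Psmd3 (84.6), Psmd6 (80.9), Psmd12 (75.7), Psmd14 (70.5), Psmd11 (63.3) and Psmd13 (57.7). Psmd3 was above Psmd6 in 4 libraries and Psmd14 above Psmd11 in 5, and the other neighbours kept their order in all 6. Psmd14 was at 94.7, 108 and 95.9 CPM in TG libraries and at 95.4, 102 and 85.1 CPM in WT libraries (log2 fold change 0.08, SE 0.09). The groups overlapped, with WT replicate 3 the lowest library.

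Psmd6 was at 91.4, 106 and 89.2 CPM in TG libraries and at 87.2, 93.3 and 79.5 CPM in WT libraries, a log2 fold change of 0.14 (SE 0.10, edgeR unadjusted p 0.186). It had the largest estimate of the 28 core subunits, and its 95% interval ran from -5.38% to 28.0%. Psmd13 was at 80.9, 87.5 and 80.0 CPM in TG and at 78.9, 83.9 and 71.1 CPM in WT (0.09, SE 0.09), again with WT replicate 2 inside the TG range. Psmd8 was at 176, 177 and 174 CPM in TG and at 184, 180.0 and 182 CPM in WT (-0.05, SE 0.07). Its groups did not overlap, and its interval ran from -13.3% to 7.68%.

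The assembly chaperones averaged between 12.1 and 37.8 FPKM, below all 28 core subunits. Psmg1 and Psmg2, which form a dimer that starts the α ring, averaged 31.2 and 28.0 FPKM, and Psmg4 and Psmg3, a second dimer of the same pathway, averaged 32.2 and 19.3 FPKM. The base chaperones Psmd5, Psmd10 and Psmd9 averaged 37.8, 18.9 and 12.1 FPKM. Psmg1 was at 26.3, 27.8 and 26.2 CPM in TG libraries and at 24.6, 25.7 and 22.1 CPM in WT libraries, a log2 fold change of 0.15 (SE 0.10). Every TG library was above every WT library, by as little as 26.2 against 25.7 CPM, and the interval ran from -4.62% to 28.9%. Psmg2 was at 24.9, 27.6 and 24.3 CPM in TG and at 24.7, 24.9 and 23.1 CPM in WT (0.08, SE 0.10), with groups that overlapped.

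Psmg3 was at 11.2, 14.99 and 15.05 CPM in TG libraries and at 12.6, 13.5 and 11.4 CPM in WT libraries (log2 fold change 0.14, SE 0.15). TG replicate 1 was the lowest library and the other TG libraries were the highest. Psmd5 was at 70.9, 68.1 and 70.2 CPM in TG and at 70.4, 74.2 and 68.9 CPM in WT (-0.03, SE 0.08). Psmd9 was at 25.9, 29.5 and 32.0 CPM in TG and at 27.9, 30.0 and 30.7 CPM in WT (-0.02, SE 0.10), and in both the groups overlapped.

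Among the regulators, Psme3, the nuclear alternative cap, averaged 65.5 FPKM, Psme4, a single-chain activator, 22.8 FPKM, and Psmf1, an inhibitor of the core in vitro, 14.4 FPKM, in this order in all 6 libraries. Psme3 was at 151, 162 and 154 CPM in TG libraries and at 158, 158 and 178 CPM in WT libraries (log2 fold change -0.08, SE 0.08). TG replicates 1 and 3 lay below every WT library, and WT replicate 3 was the highest. Psmf1 was at 44.5, 46.3 and 42.9 CPM in TG and at 42.3, 44.2 and 46.4 CPM in WT (0.01, SE 0.08). Psmc3ip was at 4.99, 5.28 and 4.55 CPM in TG and at 3.77, 5.14 and 4.40 CPM in WT (0.15, SE 0.19), and both genes had groups that overlapped.

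**Figure D3:**
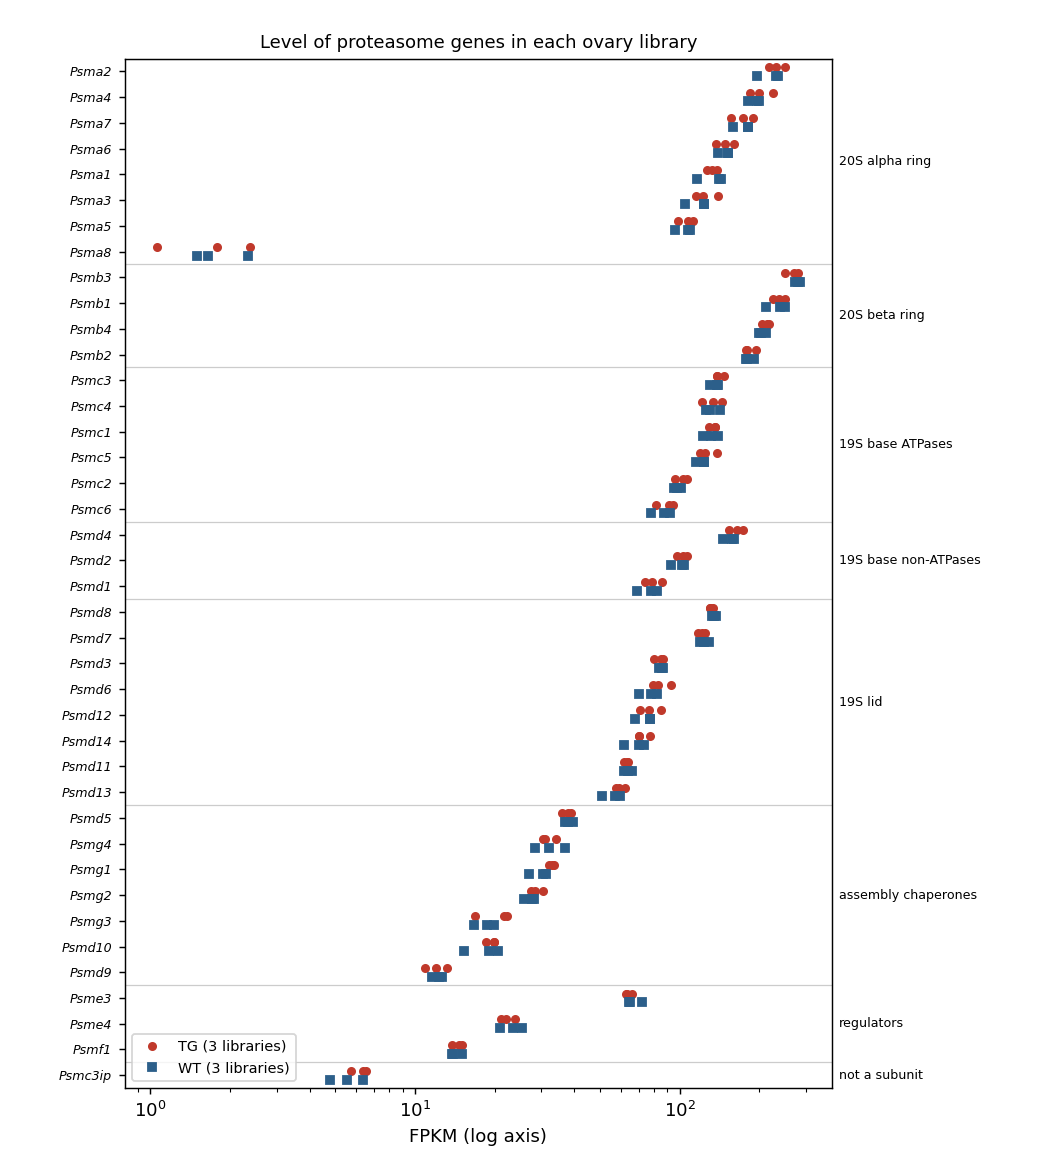
FPKM of each member (log x axis) in each of the 3 TG and 3 WT libraries, with the gene on the y axis, grouped by role. Points are single libraries. TG and WT points are intermixed for most genes. The β ring has the highest median of the roles (222 FPKM, with members at 183 to 273 FPKM on average). Psma2 (227 FPKM) and Psma4 (198 FPKM) of the α ring lie within that range. The chaperones sit between 12.1 and 37.8 FPKM, and Psma8 sits lowest at 1.06 to 2.38 FPKM.

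By role, the median log2 fold change was 0.05 for the ATPases (5 of 6 above 0), 0.04 for the other base subunits (3 of 3), 0.02 for the lid (4 of 8), 0.02 for the α ring without Psma8 (4 of 7), 0.01 for the β ring (3 of 4), 0.08 for the chaperones (4 of 7) and -0.07 for the regulators (1 of 3). Proportions between roles were taken as ratios of median FPKM in each library. The α ring without Psma8 over the ATPases was 1.21, 1.16 and 1.11 in TG libraries and 1.23, 1.21 and 1.18 in WT libraries. The β ring over the α ring lay between 1.45 and 1.62, and the α ring over the lid between 1.82 and 2.03, across all 6. The α ring over the chaperones was 5.22, 5.23 and 5.01 in TG and 5.45, 5.49 and 5.42 in WT, so its groups did not overlap, a difference that was not tested. The members together took 0.493%, 0.525% and 0.478% of the counts of the TG libraries and 0.499%, 0.499% and 0.466% of the WT libraries.

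Many members were high or low in the same libraries. TG replicate 2 was the highest of the 6 libraries for 24 of 40 members (60%), against 18.6% of all tested genes, and 37 members were above their own mean in it. WT replicate 3 was the lowest library for 22 members (55.0%), against 21.7% of all tested genes. The median deviation of the members from their gene mean was -0.01, 0.11 and -0.05 on the log2 scale in the TG libraries and 0.00, 0.03 and -0.10 in the WT libraries, while that of all genes was between -0.0047 and 0.0065 in each library. In 17 members TG replicate 2 was highest and WT replicate 3 lowest. Highest in TG replicate 2 were 7 of 8 α-ring members, 2 of 4 β-ring members, 4 of 6 ATPases, 3 of 3 other base subunits and 5 of 8 lid subunits. Of the chaperones 2 of 7 were highest there, and of the regulators 0 of 3. Lowest in WT replicate 3 were, in the same order of roles, 5 of 8, 1 of 4, 5 of 6, 3 of 3, 4 of 8, 3 of 7 and 1 of 3. By contrast, WT replicate 3 was the highest library for Psme3, Psmb3, Psmg4 and Psmf1, and TG replicate 2 was the lowest for Psmd5. These are the libraries with the high Cfd and the high Des and Ovgp1. WT replicate 3 also had the highest summed level of the oocyte markers, 135 FPKM against 69.45 to 106 FPKM elsewhere. The part of those tissues and cells in the pattern was not tested.

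**Figure D4:**
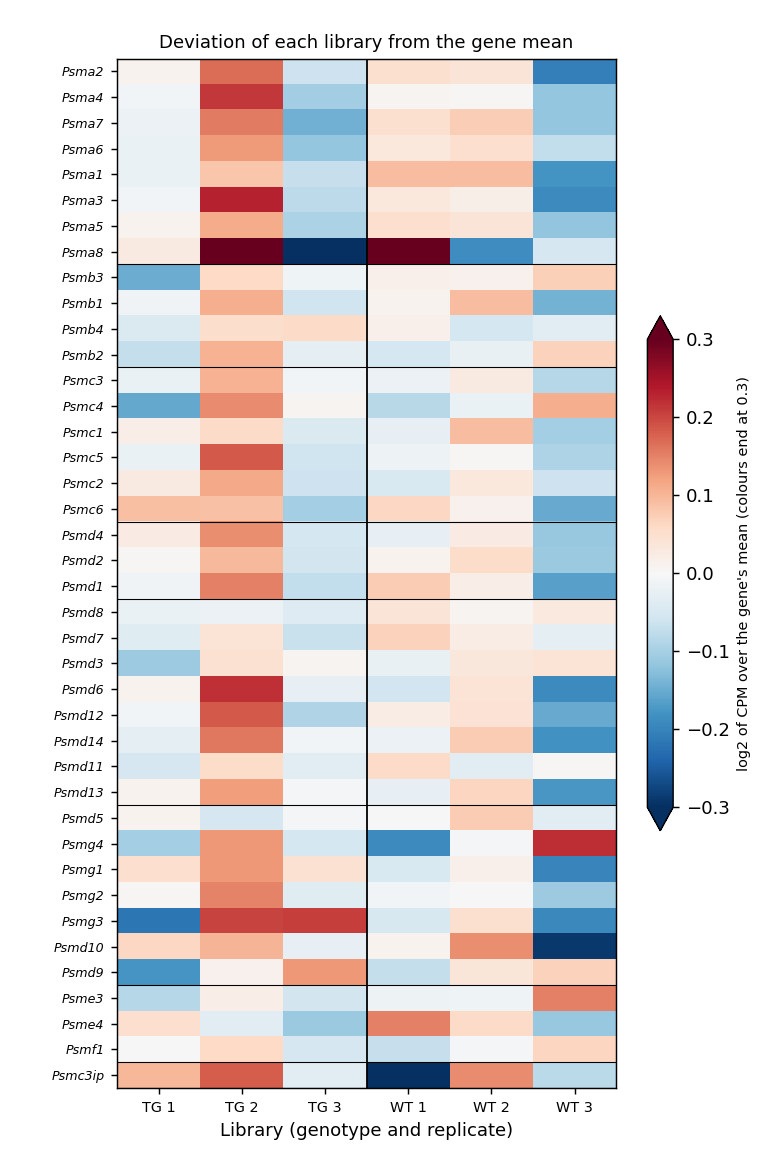
Log2 of each library's CPM over the gene's mean (colour), for each member (y axis, grouped by role) and each library (x axis, TG 1 to 3, then WT 1 to 3). The column of TG replicate 2 is above the mean for 37 of 40 members, and that of WT replicate 3 is the lowest library for 22.

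Leaving out both libraries gave a median log2 fold change of -0.05 for the members, with 6 of 40 above 0, against 48.8% of all tested genes. Groups of the 2 TG and 2 WT libraries then did not overlap for 17 members, 16 of them with TG lower, against 34.3% of all tested genes (17.1% with TG lower). No member passed edgeR's test there either, and the lowest adjusted p was 0.854. These are the libraries in which most members were highest or lowest, so leaving them out lowers the fold changes of such members. Whether that choice alone accounts for the direction was not tested. The summed level of the myeloid markers was 217, 208 and 207 FPKM in TG and 341, 233 and 431 FPKM in WT, highest in WT replicate 3. Single myeloid markers such as Ptprc, Csf1r and Adgre1 were highest in WT replicate 1 instead. The part of these cells was not tested.

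Replicates of a genotype were close. The members' median coefficient of variation was 6.80% in TG and 6.75% in WT libraries, against 8.91% and 10.3% for all tested genes. For the 31 members with a mean of at least 50 CPM it was 6.40% in TG and 6.38% in WT, and for all 4850 such genes 6.39% and 7.71%. Level was not matched by this cut, with a median of 153 CPM for those members and 95.3 CPM for those genes.

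The other genes of the pathway, listed with earlier results of these data known, gave no call either. Of 23 proteasome partners tested (shuttle proteins, deubiquitinases, assembly factors and loosely bound subunits), 0 passed the test, with a median log2 fold change of 0.02 and a range of -0.21 to 0.13. Fbxo7, a ubiquitin ligase adaptor that binds Psmf1, was at 21.0, 21.0 and 22.5 CPM in TG libraries and at 22.0, 25.3 and 24.7 CPM in WT libraries (log2 fold change -0.16, SE 0.10). Ubqln2, a shuttle, was at 103, 91.3 and 98.3 CPM in TG and at 91.6, 89.4 and 90.9 CPM in WT (0.11, SE 0.08). TG replicates 1 and 2 of Fbxo7 lay below all WT libraries and TG replicate 2 of Ubqln2 lay inside the WT range. Ddi2, the protease that activates NRF1, was at 30.2, 19.5 and 25.6 CPM in TG and at 26.2, 30.8 and 30.0 CPM in WT (-0.21, SE 0.15), with groups that overlapped.

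Of 10 regulators of proteasome gene expression tested, 0 passed, with a median of 0.00. Nfe2l1, which encodes NRF1, was at 567, 529 and 565 CPM in TG libraries and at 516, 588 and 531 CPM in WT libraries (log2 fold change 0.02, SE 0.08). Keap1, the adaptor that targets NRF2 for degradation, was at 74.6, 72.4 and 74.1 CPM in TG and at 78.3, 78.4 and 82.0 CPM in WT (-0.11, SE 0.07), and its groups did not overlap. Mafg, a small Maf partner of NRF1 and NRF2, was at 63.2, 83.0 and 77.3 CPM in TG and at 68.3, 67.2 and 72.6 CPM in WT (0.10, SE 0.11). The TG libraries of Mafg lay on both sides of the WT range. Of the NF-Y subunits, Nfya was at 73.1, 70.6 and 75.4 CPM in TG and at 76.5, 72.8 and 79.7 CPM in WT (-0.06, SE 0.08). Nfyb was at 20.03, 20.6 and 21.6 CPM in TG and at 20.9, 22.2 and 16.3 CPM in WT (0.07, SE 0.13), and in both subunits the groups overlapped.

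Of 12 genes of the ubiquitin supply, 0 passed, with a median of -0.04. Ube2v1, a partner of the conjugating enzyme Ube2n, was at 191, 201 and 203 CPM in TG libraries and at 202, 228 and 224 CPM in WT libraries (log2 fold change -0.14, SE 0.08). Only TG replicate 3 was above the lowest WT library. Rps27a, a fusion of ubiquitin with a ribosomal protein, was at 426, 502 and 428 CPM in TG and at 413, 442 and 381 CPM in WT (0.13, SE 0.10), and TG replicate 2 was again the highest and WT replicate 3 the lowest library. Ube2k, a conjugating enzyme, was at 88.1, 94.8 and 80.9 CPM in TG and at 83.4, 84.2 and 79.7 CPM in WT (0.09, SE 0.08), with groups that overlapped. In each of these 3 lists (partners, regulators of expression, ubiquitin supply) 0 genes had an unadjusted p under 0.05.

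Of the subunits that replace or compete with constitutive ones, Psmb8 and Psmb9 were lower in TG, whereas Psmb10, Psme2 and Psme1 did not pass the test (edgeR adjusted p 0.0623, 0.308 and 0.9997). Psmb9 had a log2 fold change of -0.91 (SE 0.13, edgeR adjusted p 0.00617). Psmb8, the interferon-inducible counterpart of Psmb5, was at 15.8, 18.5 and 18.8 CPM in TG libraries and at 47.1, 43.2 and 46.7 CPM in WT libraries (log2 fold change -1.37, SE 0.10, edgeR adjusted p 9.01e-05). Relative to the constitutive Psmb1, Psmb8 CPM was 0.0780, 0.0842 and 0.0964 in TG and 0.230, 0.199 and 0.253 in WT, a difference of -1.40 in log2 ratio. The groups were far apart, and the exact two-sided permutation test gave p = 0.1, the smallest possible with 3 against 3 (0.125 after Benjamini-Hochberg adjustment over 5 ratios). The differences of the log2 ratios of Psmb9 and Psmb10 to Psmb1 were -0.94 and -0.64 with the same p. For the caps, Psme2 over Psme3 differed by -0.30 with the same p, and Psme1 over Psme3 by -0.36 with exact p = 0.3 and groups that overlapped. The constitutive catalytic subunits Psmb6, Psmb7 and Psmb5, also left out of the members, had log2 fold changes of 0.14, 0.09 and -0.01 and did not pass the test.

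The members lie on 16 chromosomes, with 8 on chromosome 11 and 5 on chromosome 2, which also carries Dennd1a. The nearest of these, Psmd5 (GRCm38.p6, chromosome 2, 34852087 to 34870965), is 2.93 Mb from Dennd1a. Counts were whole in all libraries for 39 members, and Psmf1 had fractional counts in 4. Psma4, Psmc3ip, Psmd1, Psmd10, Psme4 and Psmf1 overlap another gene of the table, and the strandedness of the libraries is not given in the sources used here, so reads of overlapping genes may not be told apart.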

How the data were processed

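A BGISEQ-500 sequenced total RNA of 6 ovaries, per the labels' protocols. Build mm10, RSEM 1.3.1, Bowtie2 and DESeq2 1.4.5 appear in the submitters' processing notes, without options. The authors deposited estimated counts per gene, per the file headers, of which 8.50% to 9.12% per library are not whole, and these were rounded. The authors' other deposited values are taken to be FPKM, judged by their relation to count and length because no header names the unit, and served for levels between genes and an alternative test.

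Counts were tested in R 4.3.3 with edgeR 4.0.16 (quasi-likelihood, TMM factors, filterByExpr at 10 counts and a total of 15, adjusted p under 0.05 over all 14124 genes), on 3 TG and 3 WT animals with no covariate. The code was tested on simulated data. CPM use TMM-scaled library sizes. Alternatives used DESeq2 1.42.0, limma 3.58.1, other scalings and filters, and fewer libraries. Of 18280 genes, 18165 matched the RefSeq gene table of GRCm38.p6, and promoter sequences are RefSeq's.

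Named were the 12 members with the smallest p, the highest and lowest by mean FPKM of each role, Psma8, Psmb11, members beside the count limit and up to 4 genes of each other list by smallest p. Psmc1, Nfe2l1 and others named beside these were chosen with their values seen. The members, lists and motifs were chosen with earlier results of these data known. Psme3ip1 and Paaf1 were not analysed here, and Nfe2l3 did not pass the filter. A few genes of the other lists are not reported here.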

Additional observations from a re-analysis of the deposited data

How the results depend on the processing

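All 17 alternatives gave 0 members past the threshold and 0 at an unadjusted p under 0.05. The filter of at least 50 counts in 3 samples tested 39 members, without Psma8. Over the alternatives the lowest adjusted p of a member was 0.854, and single fold changes lay between -0.46 and 0.28 on the log2 scale. Genes called in the whole table numbered between 119 and 204, with 204 by DESeq2. The members' median was 0.03 on all 6 libraries, between -0.022 and 0.066 with 1 library left out, and -0.051 without TG replicate 2 and WT replicate 3. The count of members whose groups did not overlap, 2, became 1 with no composition factors and 1 by limma-trend on log2(FPKM + 1) and on log2(FPKM + 0.1). It was between 2 and 5 with 1 library left out, where 15.3% to 19.3% of all genes did not overlap, and 17 without both, where 34.3% of all genes did not. Of the 22 members given by library, 6 kept one sign of fold change in every alternative: Psmb3, Psmc3ip, Psmd8, Psme3, Psmg1 and Psmg3. Replicate numbers do not pair the animals in the labels, and the deviations of same-numbered TG and WT libraries correlated across genes at 0.23, 0.08 and 0.09, although each library correlated best with its own number. With the replicate number as a block, 159 genes passed, against 149 without it, 0 of them members, and the members' median was 0.03. Depth limited Psma8 most, with 27 to 66 counts per library and the widest interval of the members.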
